A study of Mus musculus with 16 samples.

Results

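The Gbp, Ifi, Ifit, Ifitm and Oas families of interferon-induced genes and the Irf family of interferon regulatory factors were followed at their promoters and gene ends in mouse neural stem and progenitor cells that lacked or overexpressed Kat6b, a gene for a histone acetyltransferase. The members were all autosomal genes of the deposited promoter and gene-end tables whose symbol belongs to the numbered Gbp, Ifi, Ifit, Ifitm, Irf or Oas series, and the rule used no measured value. It found 64 of 20113 genes: 11 Gbp, 19 Ifi, 6 Ifit, 7 Ifitm, 9 Irf and 12 Oas genes. The rule is one of names, so it also takes in genes that are not induced by interferon in every tissue, such as Ifitm5, a gene of bone.

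DNA accessibility was measured by ATAC-seq, which reads where a transposase can insert into open chromatin, in cells of the dorsal telencephalon of E12.5 embryos kept in neurosphere culture. Each of 4 groups had 4 libraries from separate embryos. On the inbred C57BL/6 background the groups were Kat6b knockout (homozygous null, called KO) and wild type. On the mixed FVB x BALB/c background they were Tg(Kat6b), a transgenic line that overexpresses Kat6b and is called Tg, and wild type. The design text states that the transgene is not viable on C57BL/6, so the KO and Tg comparisons stand on different backgrounds, each with its own wild type. No group was treated with interferon according to the labels, and the labels name neither the extent of the knockout deletion nor the structure of the transgene.

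Interferons signal through cell-surface receptors, Janus kinases and STAT proteins to a factor complex that contains IRF9 and binds the interferon-stimulated response element. The genes it switches on include the GBP proteins, guanosine triphosphatases that attack the membranes around intracellular pathogens, and the IFIT proteins, which bind foreign RNA. They also include the IFITM proteins, which block the entry of viruses, the OAS enzymes, whose product activates RNase L, and the HIN-200 proteins of the Ifi200 cluster, which bind DNA. Stem cells are known to keep some of these genes on without added interferon.

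Sequence before the gene start carried the response element more often in these families than in other genes. Its core, GAAA followed by any 2 bases and a further GAAA, read on both strands, was present in 25 of the 49 members that have a window of 300 bases in RefSeq (250 bases before to 50 after the start, GRCm38.p6), which is 51.0%, against 4.02% of the 16035 genes of the promoter table with such a window. All 5 Gbp genes with a window, all of them on chromosome 3, held it, as did 5 of 6 Ifit, 8 of 15 Ifi, 4 of 8 Oas, 2 of 7 Ifitm and 1 of 8 Irf genes. The STAT-type element TTCNNNGAA was present in 11 of the 49 members, 22.4%, against 8.96% of all genes, and its match overlapped one of the first element in 1 member. A match is a description of these letters and not of a bound factor, and 15 members had no window.

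Below are the 150 bases before the start, written 5′ to 3′ on the gene's strand, for 7 members whose values are described further on; capitals mark the response-element core or, in Ifi202b and Irf1, the STAT-type element. Gbp2 and Gbp3 lie in the same chromosome 3 cluster and had different values, Ifit1 and Ifit1bl2 start back to back from a shared stretch, Ifi202b and Ifi211 belong to the chromosome 1 cluster, and Irf1 represents the regulators.
Gbp2 (chr3:142620513-142620662, plus strand, GRCm38.p6): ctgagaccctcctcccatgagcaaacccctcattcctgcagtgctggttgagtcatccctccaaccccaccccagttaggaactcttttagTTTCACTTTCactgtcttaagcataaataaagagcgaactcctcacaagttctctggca
Gbp3 (chr3:142559894-142560043, plus strand, GRCm38.p6): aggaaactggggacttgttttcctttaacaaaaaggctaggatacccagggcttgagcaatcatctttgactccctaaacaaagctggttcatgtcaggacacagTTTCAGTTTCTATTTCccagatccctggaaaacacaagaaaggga
Ifit1 (chr19:34640739-34640888, plus strand, GRCm38.p6): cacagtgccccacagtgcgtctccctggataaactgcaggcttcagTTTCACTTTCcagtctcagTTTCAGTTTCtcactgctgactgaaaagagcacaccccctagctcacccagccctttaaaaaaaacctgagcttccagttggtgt
Ifit1bl2 (chr19:34640744-34640893, minus strand, GRCm38.p6): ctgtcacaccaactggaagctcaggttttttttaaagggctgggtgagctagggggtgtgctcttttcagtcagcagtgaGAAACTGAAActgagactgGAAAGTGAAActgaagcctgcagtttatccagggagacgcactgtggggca
Ifi202b (chr1:173982845-173982994, minus strand, GRCm38.p6): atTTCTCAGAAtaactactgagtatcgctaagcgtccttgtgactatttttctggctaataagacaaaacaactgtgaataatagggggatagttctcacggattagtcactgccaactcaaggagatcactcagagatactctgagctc
Ifi211 (chr1:173913047-173913196, minus strand, GRCm38.p6): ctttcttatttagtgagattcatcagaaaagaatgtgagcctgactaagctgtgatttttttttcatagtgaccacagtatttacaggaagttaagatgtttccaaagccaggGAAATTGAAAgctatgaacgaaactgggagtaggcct
Irf1 (chr11:53769864-53770013, plus strand, GRCm38.p6): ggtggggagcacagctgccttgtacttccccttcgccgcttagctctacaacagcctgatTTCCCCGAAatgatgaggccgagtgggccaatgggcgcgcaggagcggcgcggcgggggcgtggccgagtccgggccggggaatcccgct
The Ifit1 and Ifit1bl2 sequences lie on opposite strands of nearly the same interval, so that both carry the same pair of elements. Their deposited promoter counts differed by at most 8.70% in any library, and their values are uncertain as separate measurements. The same holds for Oas1b and Oas1c, whose counts were equal in 7 of 16 libraries and differed by at most 9.09%. Irf3 shares its promoter window with Bcl2l12, and reads of near-identical neighbours within the Ifi200, Gbp and Oas clusters could also be split or shared by the authors' counting.

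Promoter totals ran from 1384643 to 5015408 counts per library and gene-end totals from 198347 to 489743. A member's promoter held 7 to 396 counts in a library and a gene end 0 to 145. Values below are CPM (counts scaled to a common library total) of a region class after TMM scaling, a factor for library composition, so promoter and gene-end values are on separate scales. The Kat6b promoter stood at 230 ± 5.39 CPM in wild-type FVB x BALB/c and 3175 ± 309 CPM in Tg (SD, n = 4 each), and at 273 ± 22.9 and 298 ± 2.12 CPM in wild-type C57BL/6 and KO; the promoter is not known to lie in the deleted part and does not check the knockout. Tg libraries carried 0.458 to 9.01 CPM in chromosome Y enhancer regions against 48.6 to 61.3 in their wild type, and the labels give no sex. The C57BL/6 groups carried 34.1 to 48.4 CPM there. In the Tg comparison, and in the difference between effects, the transgene and a possible difference in sex cannot be told apart. All 28 marker promoters of neural stem, microglial, endothelial and mesenchymal cells had reads, and the 8 neural stem markers summed to 834 to 1245 CPM per library against 54.5 to 97.0 CPM for the 8 microglial and leukocyte markers. In a bulk sample, fewer cells of a type and less accessibility per cell cannot be told apart.

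The promoters of most members were little open in wild-type C57BL/6 progenitors, and the Irf regulators had the highest family median. The median member had 10.8 CPM against 35.4 CPM for all promoters, whose quartiles were 8.90 and 73.1 CPM, and 8 of 64 members lay above the median of all promoters. Family medians were 30.0 CPM for Irf, 19.03 for Gbp, 11.6 for Ifitm, 10.7 for Ifit, 9.63 for Ifi and 7.77 for Oas. Nearly all promoter windows have the same length, so the levels were not scaled by length. How reads of near-identical copies in the Ifi200, Gbp and Oas clusters were counted is not given. Its part in the differences between families was not tested.

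**Figure D1:**
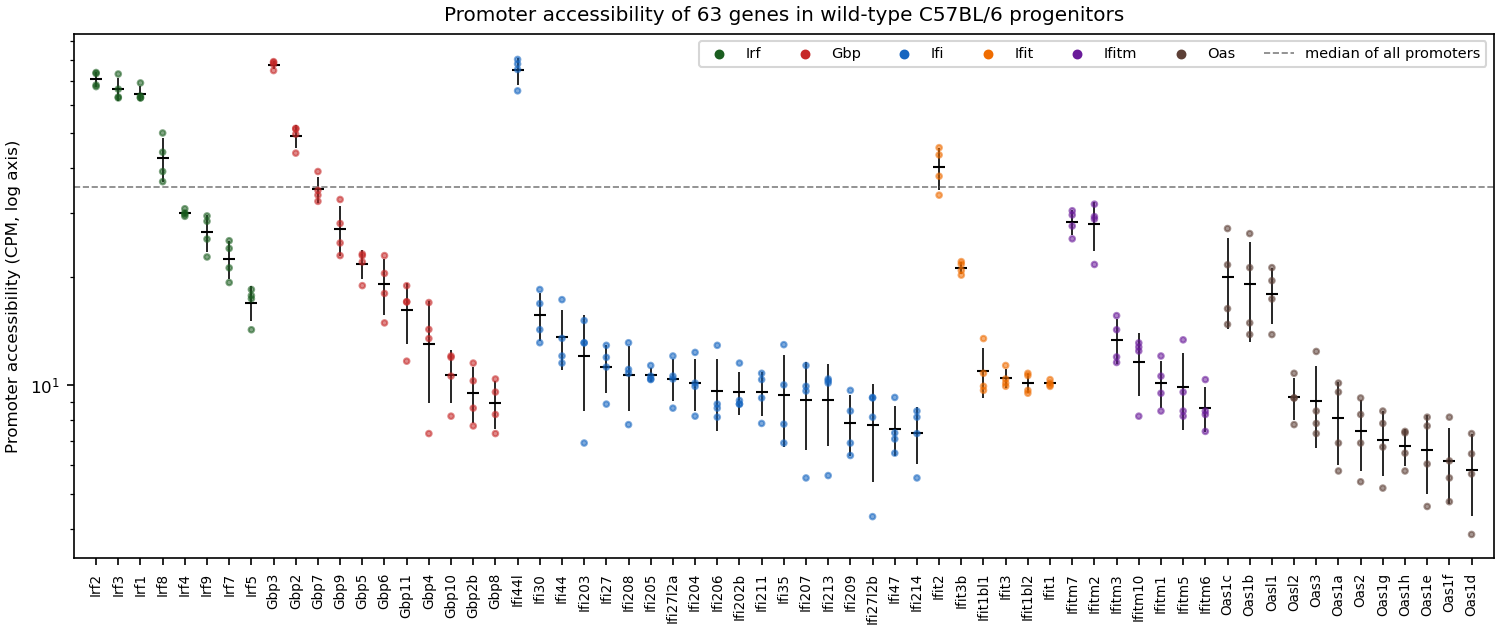
Promoter accessibility in CPM (log axis) of 63 of the 64 members in wild-type C57BL/6 cells, ordered by family and level; points are the 4 libraries, bars the mean ± SD, and the dashed line the median of all promoters at 35.4 CPM. Gbp3, Ifi44l and 3 Irf genes stand highest, and most Ifi and Oas genes lie near or under 10 CPM.

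The most open member was Gbp3, a guanylate-binding protein, at 77.4 ± 1.98 CPM (SD, n = 4). Next came Ifi44l at 74.7 ± 6.41 CPM and Irf2, the antagonist of IRF1, at 70.6 ± 3.34 CPM. Irf3, which turns on the interferon beta gene after nucleic acids are sensed, had 66.2 ± 4.79 CPM and Irf1, an activator of antigen presentation and interferon-response genes, had 64.4 ± 3.03 CPM. These neighbours in the order overlap in their library values. Behind them stood Gbp2 at 49.2 ± 3.53 CPM, Irf8, a factor of myeloid cells, at 42.6 ± 5.93 CPM, and Ifit2, an RNA-binding antiviral effector, at 40.2 ± 5.41 CPM. Irf4, a lymphocyte factor, had 30.0 ± 0.614 CPM, Irf9 26.5 ± 3.09 CPM and Irf7, the amplifier of interferon production, 22.4 ± 2.67 CPM. Irf5, which acts below Toll-like receptors, had 16.9 ± 1.85 CPM. Ifi30, a lysosomal thiol reductase, had 15.7 ± 2.41 CPM, and among the Ifitm and Oas genes Ifitm7 stood at 28.3 ± 2.24, Ifitm2 at 27.9 ± 4.38, Oas1c at 20.0 ± 5.65, Oas1b at 19.05 ± 5.84 and Oasl1 at 17.96 ± 3.18 CPM. The lowest was Oas1d at 5.83 ± 1.48 CPM.

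Loss of Kat6b lowered 4 member promoters and raised none past the threshold. The 4 were Gbp2, Ifi202b, Ifi27 and Ifit3b, and each had its highest KO library under its lowest wild-type library. The test was edgeR's quasi-likelihood test over all promoters with Benjamini-Hochberg adjustment and a threshold of 0.05, which called 2.09% of 20008 promoters higher and 1.9% lower. Of the members 6.25% were called lower. The median log2 change was -0.15 over the members and -0.01 over all promoters, and 54 of 64 members had a value below 0. Less open promoters had lower values in general. In the least open of 4 equal bins by mean accessibility, the median was -0.30 over 20 members and -0.21 over all promoters. In the next bin it was -0.14 over 36 members and -0.04 over all promoters. At an unadjusted p under 0.05 (edgeR) there were 10 lower and 1 higher members, and the share of all promoters at that level was not counted.

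Gbp2, a guanylate-binding protein that in mice is recruited to the vacuole of Toxoplasma, had 49.7, 44.0, 51.6 and 51.4 CPM in wild-type C57BL/6 and 41.8, 36.8, 38.3 and 35.9 CPM in KO. The groups were apart, and the log2 change was -0.36 ± 0.10 (SE, adjusted p = 0.0165, edgeR). Gbp3 on the same chromosome, whose printed sequence also carries the element, had a log2 change of -0.06 with a 95% interval from -0.21 to 0.09. The 6 Gbp promoters of chromosome 5 had a median log2 change of -0.10, and none passed.

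Ifi202b, a HIN-200 protein without a pyrin domain, had 8.86, 9.06, 11.5 and 8.86 CPM in wild type and 3.60, 5.30, 6.97 and 6.13 CPM in KO. The log2 change was -0.81 ± 0.24 (adjusted p = 0.0321, edgeR). Among the 11 members of its chromosome 1 cluster it alone passed, while the cluster's median log2 change was -0.37. The 20 promoters that flank the cluster had a median log2 change of -0.22, with 1 lower call. Ifi205 had 10.4, 10.4, 10.6 and 11.3 CPM in wild type and 8.03, 8.28, 7.36 and 6.13 CPM in KO, which were also apart, but its adjusted p was 0.182.

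Ifi27, a small membrane protein strongly induced by type I interferon, had 11.9, 11.2, 12.9 and 8.86 CPM in wild type and 3.32, 8.28, 8.13 and 6.71 CPM in KO. Its log2 change was -0.79 ± 0.22 (adjusted p = 0.0205, edgeR). Ifit3b, of the RNA-binding IFIT family, had 20.8, 22.0, 21.6 and 20.2 CPM in wild type and 17.7, 18.2, 12.8 and 10.5 CPM in KO. The KO libraries were spread widely below a tight wild type, with a log2 change of -0.51 ± 0.16 (adjusted p = 0.0411, edgeR). The other 5 Ifit promoters did not pass, among them Ifit2 at 0.15 with an interval from -0.06 to 0.35.

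The 9 Irf promoters gave no call in KO, and Irf1 had a log2 change of -0.00 with a 95% interval from -0.16 to 0.16. Irf4 had 29.4 to 30.9 CPM in wild type and 33.2 to 39.9 CPM in KO, the only member whose KO libraries all lay above wild type, with an adjusted p of 0.284. Groups did not overlap at 6 members in the lower direction (the 4 called, Ifi205 and Ifit3, the last named after its values were seen) and 1 in the higher, against 4.61% and 5.43% of all promoters.

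The KO calls were close to the threshold. DESeq2 called none of the 4, scaling by gene-end factors called none, and offsets that follow abundance left Gbp2 alone. KO libraries tended to be deeper, with promoter totals of 2615700 to 3642738 against 2147037 to 2757778 in their wild type. With all libraries thinned to the lowest total, 1384643, the Ifi202b and Ifit3b calls ended and Ifit3 was called lower. The Gbp2 call ended without wild-type replicate 3 (adjusted p = 0.0548) or 4 (0.0725) or KO replicate 2 (0.0532) or 4 (0.0704). The Ifi202b call ended without wild-type replicate 1 (0.051), 3 (0.127) or 4 (0.0534) or KO replicate 1 (0.186) or 2 (0.0658), and the Ifi27 call without wild-type replicate 1 (0.0705) or 3 (0.0806) or KO replicate 1 (0.221). The Ifit3b call ended without wild-type replicate 1 (0.0819), 2 (0.0873), 3 (0.0912) or 4 (0.0715) or KO replicate 3 (0.122) or 4 (0.266). The number of members called ranged from 1 to 3 with 1 library left out.

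**Figure D2:**
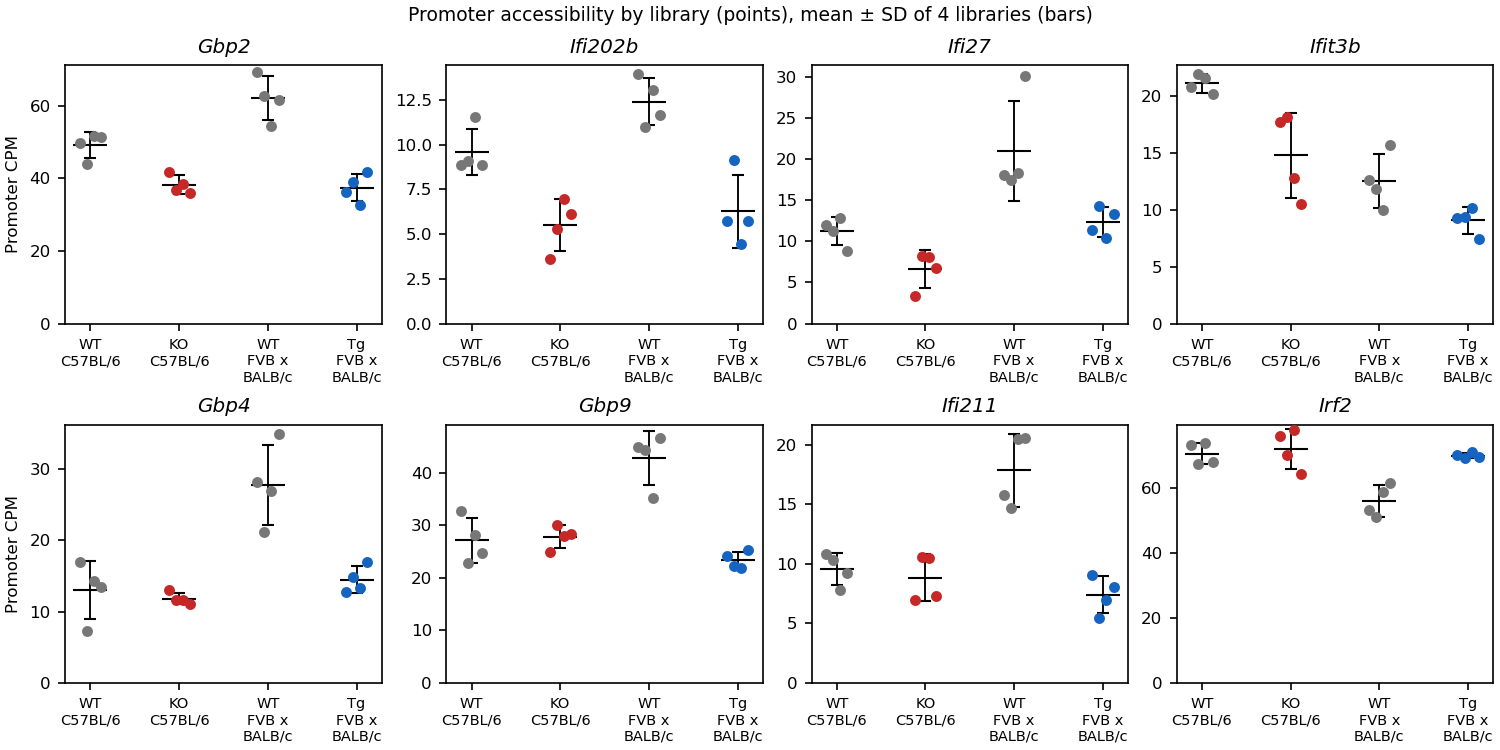
Promoter CPM by library for 8 members in the 4 groups; points are libraries, bars the mean ± SD of 4. Gbp2, Ifi202b, Ifi27 and Ifit3b are lower in KO and in Tg than in the respective wild type, Gbp4, Gbp9 and Ifi211 are highest in wild-type FVB x BALB/c, and Irf2 is lowest there.

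Overexpression of Kat6b was accompanied by lower accessibility at most effector promoters and higher accessibility at 4 regulators. Of 64 members, 42 were lower, 4 were higher and 18 did not pass (edgeR). The background was broad, since 30.5% of all promoters were called lower and 26.9% higher. The median log2 change was -0.59 over the members and -0.10 over all promoters. Groups did not overlap at 32 members in the lower direction and 3 in the higher, against 21.7% and 23.5% of all promoters.

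Less open promoters were called lower in Tg more often than open ones, and the members are mostly of that kind. With promoters cut into 4 equal bins from low to high mean accessibility, 14 of 20, 25 of 36, 3 of 7 and 0 of 1 members were called lower, against 51.2%, 40.3%, 20.1% and 10.2% of all promoters. With offsets that follow abundance, members called were 17 lower and 0 higher, against 3595 lower and 3609 higher of 20008 promoters. Scaling by the factors of the gene ends moved the median of all promoters to 0.32 and gave 14 lower and 5 higher members, and library totals moved it to -0.21 and gave 47 lower and 2 higher. Tg libraries were also deeper, with promoter totals of 4023140 to 5015408 against 1384643 to 3101439 in their wild type; thinned to equal depth, 35 members were lower and 1 higher.

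**Figure D3:**
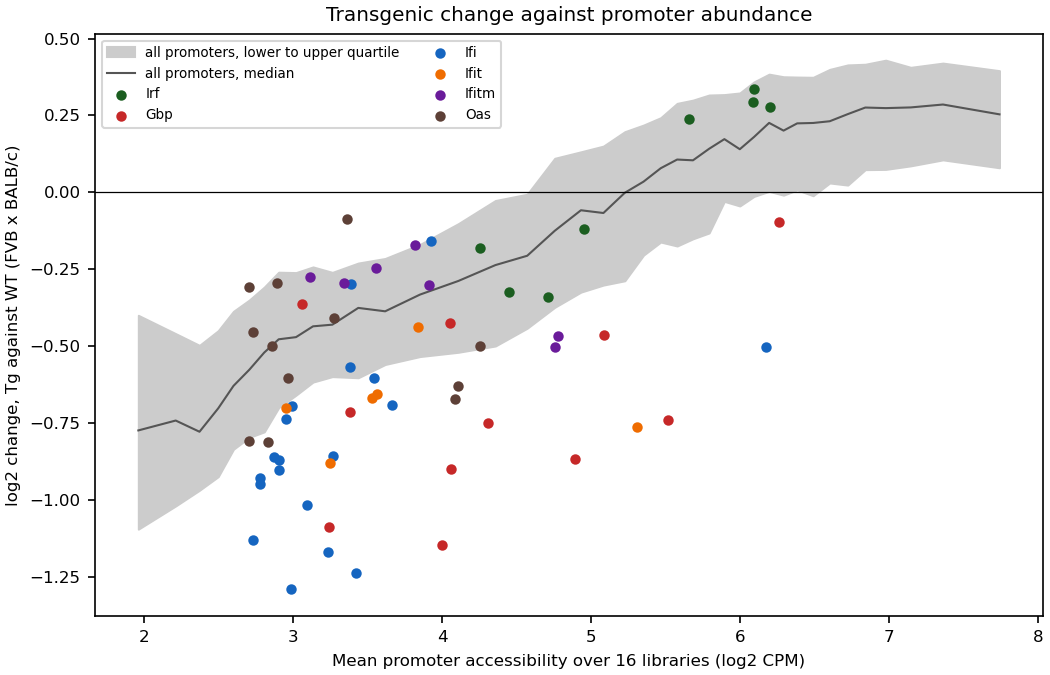
Log2 change in Tg against mean promoter accessibility (log2 CPM over 16 libraries); the line and band are the median and lower to upper quartile of all promoters in 40 bins of abundance, and points are 63 of the 64 members. All promoters move from below 0 at low abundance to above 0 at high abundance, and Ifit2 and many Gbp and Ifi points lie below the band while Irf1, Irf2, Irf3 and Irf8 lie within it.

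The Ifi200 cluster on chromosome 1, which encodes DNA-binding HIN-200 proteins, was lower at 11 of 11 members with a median log2 change of -0.95. Ifi205 had 8.54, 9.37, 9.57 and 11.6 CPM in wild-type FVB x BALB/c and 5.70, 2.48, 4.23 and 3.19 CPM in Tg. Ifi211 had 15.8, 14.7, 20.4 and 20.5 CPM in wild type and 9.07, 5.45, 6.98 and 8.08 CPM in Tg. In both the groups were apart, with log2 changes of -1.29 ± 0.25 (adjusted p = 2.7e-06) and -1.24 ± 0.18 (adjusted p = 2.3e-09, edgeR). Ifi204 changed by -1.17, Ifi209 by -1.13, Ifi202b by -1.02, Ifi207 by -0.95 and Ifi214 by -0.93 on the log2 scale. Of the 11 calls 2 ended with a library left out, Ifi213 without wild-type replicate 4 (0.13) or Tg replicate 3 (0.0935) and Ifi208 without wild-type replicate 4 (0.0534).

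Promoters around this cluster were lower as well. Of the 20 flanking promoters, most of them of olfactory receptors, 19 were lower with a median log2 change of -1.02, and Mndal, a further HIN-200 gene between the members, was lower by a log2 change of -1.25. With offsets that follow abundance, 4 of the 11 members remained lower, with a median of -0.43, and with gene-end factors 5 did, with a median of -0.53. Elsewhere in the Ifi family, Ifi47, a GTPase of the IRG family, changed by -0.90, Ifi27 by -0.69 and Ifi44l by -0.50 on the log2 scale. Ifi44l had 77.4 to 92.4 CPM in wild type and 58.7 to 63.5 CPM in Tg, which were apart (adjusted p = 4.9e-09, edgeR). Ifi30 did not pass, with a log2 change of -0.16 and a 95% interval from -0.48 to 0.16.

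The Gbp cluster on chromosome 5 was lower at 6 of 6 members with a median log2 change of -0.88, whereas its 20 flanking promoters had a median of -0.24 with 8 lower and 2 higher. Gbp11, annotated in RefSeq as a transcribed pseudogene, had 22.5, 21.2, 20.4 and 29.4 CPM in wild type and 8.81, 12.1, 8.24 and 11.9 CPM in Tg. Gbp9 had 44.9, 44.4, 35.2 and 46.5 CPM in wild type and 24.1, 22.3, 21.8 and 25.3 CPM in Tg. Gbp4 had 28.2, 21.2, 26.97 and 34.9 CPM in wild type and 12.7, 14.9, 13.3 and 17.0 CPM in Tg. All 3 fell with groups apart, by log2 changes of -1.15 ± 0.16 (adjusted p = 8.5e-11), -0.87 ± 0.11 (adjusted p = 5.6e-12) and -0.90 ± 0.14 (adjusted p = 1.4e-08, edgeR). Gbp8 changed by -1.09. The cluster kept 5 of 6 lower calls both with offsets that follow abundance and with gene-end factors.

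On chromosome 3 the Gbp genes differed among themselves. Gbp2 had 69.3, 62.8, 54.4 and 61.6 CPM in wild type and 36.3, 38.9, 32.8 and 41.7 CPM in Tg, with a log2 change of -0.74 ± 0.09 (adjusted p = 1e-12, edgeR). Gbp3 had 79.4, 81.1, 79.2 and 77.3 CPM in wild type and 65.1, 71.6, 78.0 and 81.2 CPM in Tg. These overlapped, with a log2 change of -0.10 and a 95% interval from -0.24 to 0.05. The direction at Gbp3 depended on the scaling: it was lower with offsets that follow abundance (-0.27, adjusted p = 0.00178) and with library totals (-0.21, adjusted p = 0.00973), and higher with gene-end factors (0.32, adjusted p = 0.00709). Gbp7 and Gbp5 were lower and Gbp2b did not pass, and the Gbp5 call (adjusted p = 0.0291, edgeR) ended without wild-type replicate 1 (0.0652) or 3 (0.0664) or Tg replicate 3 (0.0589) or 4 (0.0822).

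**Figure D4:**
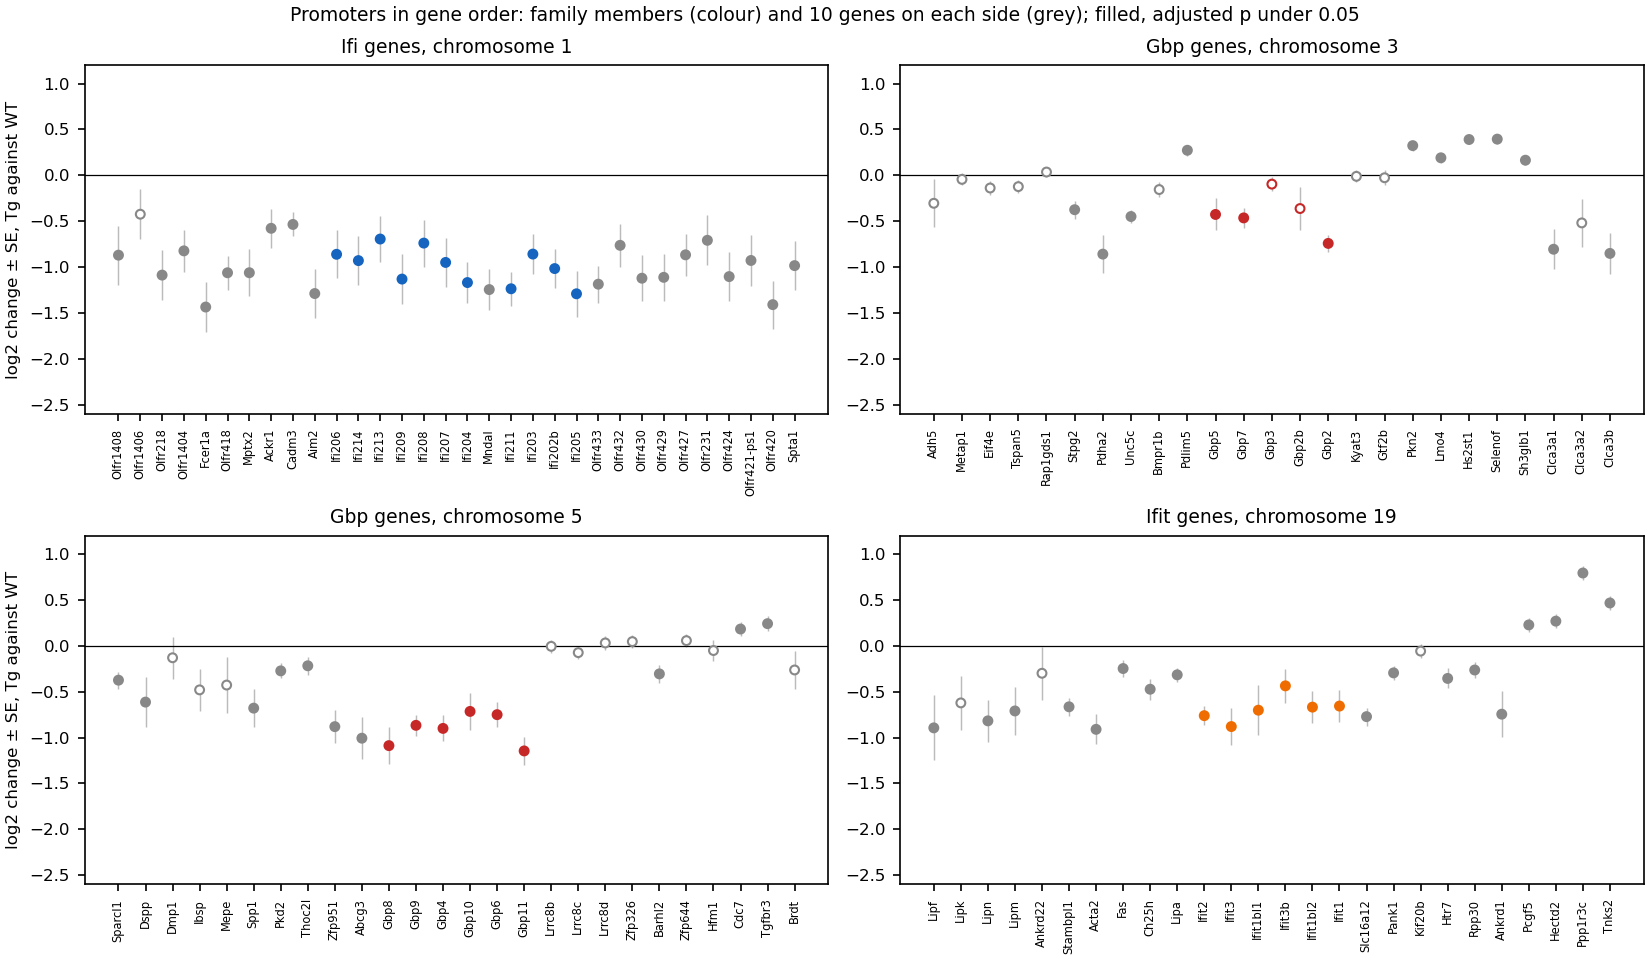
Log2 change ± SE in Tg for members (colour) and 10 genes on each side (grey) in the gene order of RefSeq; filled points passed the threshold. On chromosome 1 members and neighbours lie at a common low level, while on chromosome 5 the Gbp genes lie below most of their neighbours.

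Every Ifit promoter was lower in Tg, with a median log2 change of -0.69, beside flanking promoters of which 13 of 20 were lower and 4 higher (median -0.34). Ifit2 had 53.1, 48.1, 50.5 and 37.0 CPM in wild type and 29.0, 26.5, 25.8 and 32.7 CPM in Tg, groups that were apart, with a log2 change of -0.76 ± 0.10 (adjusted p = 8.1e-11, edgeR). Ifit1 and Ifit1bl2, which share a stretch, changed by -0.66 and -0.67. With offsets that follow abundance 1 of 6 was called lower, with a median of -0.28. The Ifit1bl1 call ended without Tg replicate 3 (0.0727) or 4 (0.0672). Ifit3b was called at an adjusted p of 0.0388 that rose above the threshold without wild-type replicate 1 (0.0901), 2 (0.056) or 4 (0.11) or Tg replicate 4 (0.125).

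Ifitm and Oas genes moved less. Of the Ifitm genes, whose products block virus entry, 2 of 7 were lower, Ifitm2 by a log2 change of -0.50 and Ifitm7 by -0.47, and the family median of -0.29 turned to 0.13 with offsets that follow abundance and 0.12 with gene-end factors. Of the Oas genes 6 of 12 were lower, including Oasl1 at -0.50 and Oas1c at -0.63, and the median was -0.50, -0.04 with abundance offsets and -0.09 with gene-end factors. Of all promoters 30.5% were lower in Tg, with 51.2% in the least open bin of mean accessibility and 40.3% in the next. Whether the Ifitm and Oas counts differ from these shares was not tested. The 20 flanking promoters of the Oas region had a median of 0.24 and 14 higher calls. The 59 other genes between the Oas members had a median of -0.01, with 16 higher and 16 lower calls.

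Of the 9 Irf promoters, 4 were higher, 2 lower and 3 did not pass in Tg, beside 26.9% of all promoters higher and 30.5% lower. The 4 higher ones lay in the next to most open of the 4 bins of mean accessibility. There 38.5% of all promoters were called higher, and whether the Irf genes differ from that share was not tested. Irf2 had 53.1, 50.9, 58.7 and 61.6 CPM in wild type and 70.0, 69.1, 71.0 and 69.5 CPM in Tg. Irf1 had 61.4, 62.4, 57.9 and 63.0 CPM in wild type and 80.9, 70.8, 77.6 and 70.3 CPM in Tg. Irf3 had 63.9, 74.2, 62.7 and 75.3 CPM in wild type and 81.7, 83.5, 81.6 and 84.2 CPM in Tg. All Tg libraries were above all wild-type libraries at these 3, with log2 changes of 0.34 ± 0.08 (adjusted p = 0.00024), 0.29 ± 0.08 (adjusted p = 0.00092) and 0.28 ± 0.08 (adjusted p = 0.00113, edgeR).

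Irf8 rose by a log2 change of 0.24 (adjusted p = 0.0165, edgeR) with overlapping groups, and did not pass without wild-type replicate 2 (0.129) or 3 (0.0741). Irf7 and Irf9 fell by 0.32 and 0.34 on the log2 scale and turned to 0.09 and 0.07 with gene-end factors, and neither passed with abundance offsets or DESeq2. Irf7 also missed the threshold without wild-type replicate 1 (0.074) or 2 (0.0558) or Tg replicate 2 (0.0956) or 4 (0.0525), and Irf9 without wild-type replicate 3 (0.195) or Tg replicate 1 (0.127). With offsets that follow abundance no Irf promoter was called, Irf1 standing at 0.15 and Irf2 at 0.19.

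**Figure D5:**
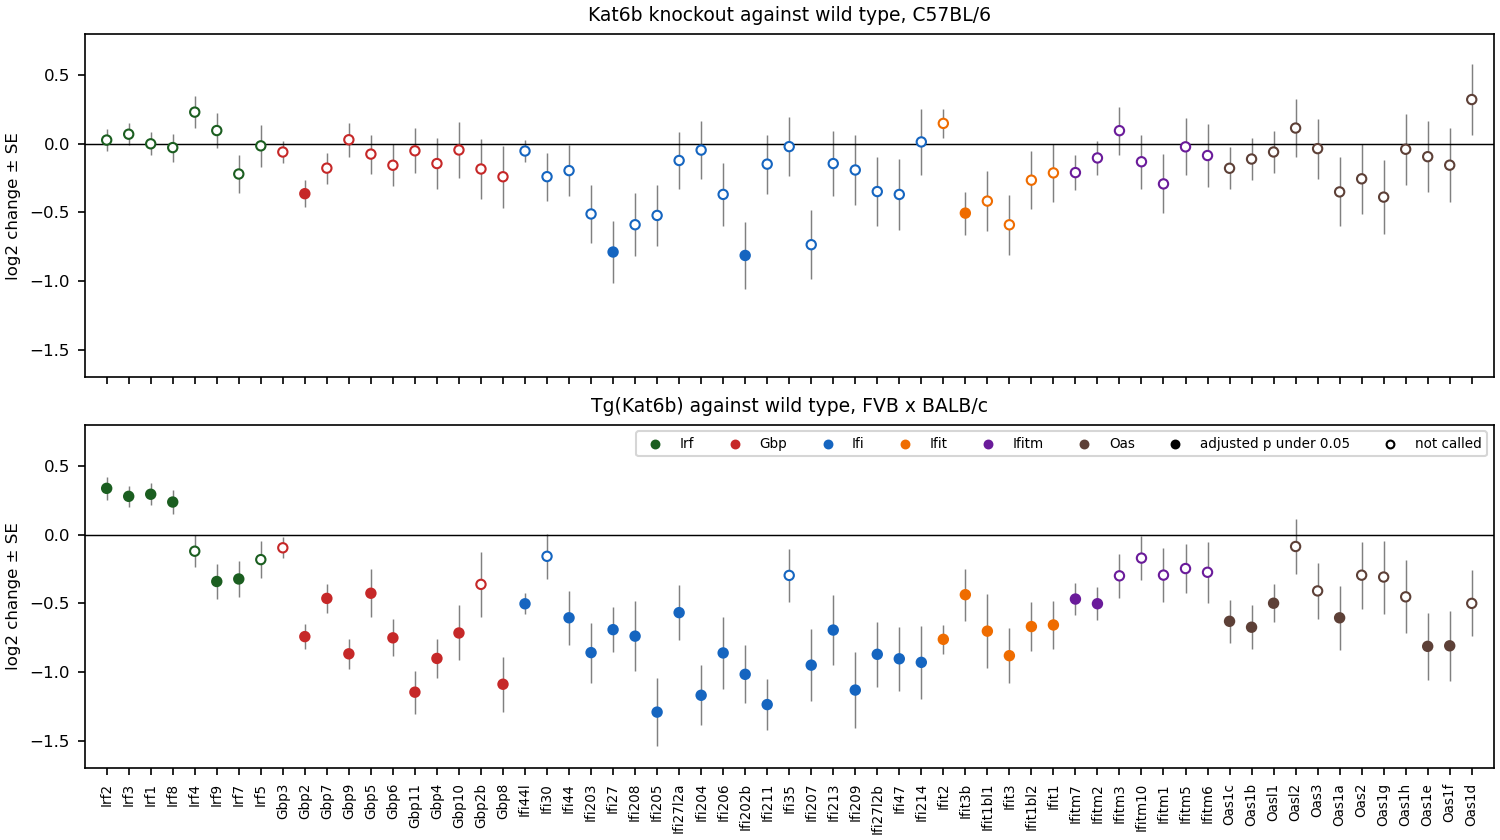
Log2 change ± SE of 63 of the 64 member promoters in KO (top) and Tg (bottom), ordered as in the plot of levels; filled points had an adjusted p under 0.05. In KO 4 points are filled, all below 0, and in Tg the 4 filled points above 0 are Irf genes and 42 lie below 0.

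Members with the response-element core and members without it both had a median below 0 in Tg. Of the 25 with it, 19 were lower and 1 higher with a median log2 change of -0.66. Of the 24 without it 11 were lower and 3 higher with a median of -0.31. Of all promoters 30.5% were lower and 26.9% higher, with 51.2% lower in the least open bin and 40.3% in the next. The count of lower members without the core is near these last shares. Their median wild-type C57BL/6 levels were 10.7 and 14.6 CPM, so that accessibility moved with the grouping and its part was not tested. The KO medians were -0.21 and -0.06.

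No library is common to the KO and Tg comparisons. All 4 members lower in KO were lower in Tg, which is 4 of 4 of the first list and 4 of 42 of the second, beside 42 of 64 members lower in Tg. The difference between the effects passed at 15 members, 13 with a lower and 2 with a higher value in Tg, against 12.6% and 17.0% of all promoters (edgeR). The lower ones included Ifi204, at a log2 difference of -1.12 (KO -0.05, Tg -1.17), Gbp11 at -1.09 (KO -0.05, Tg -1.15) and Ifi211 at -1.09 (KO -0.15, Tg -1.24). The higher ones were Irf1 at 0.29 and Irf2 at 0.31. Of the 4 members lower in both, Gbp2 changed more in Tg by a log2 difference of -0.38 (adjusted p = 0.0236), while Ifi202b, Ifi27 and Ifit3b had differences of -0.20, 0.10 and 0.07 that did not pass. Scaling by gene-end factors gave 5 lower and 4 higher, and 9 of the 15 calls ended when a single library was left out. Irf1 and Ifi209 each had 9 libraries whose absence ended the call (adjusted p up to 0.102 and 0.168), Irf2 and Ifi214 each had 6 (up to 0.0989 and 0.0766), and Oas1b had 10 (up to 0.13). Gbp2 had 4 (up to 0.0958), Gbp8 had 3 (up to 0.0681), Gbp6 had 2 (up to 0.0739) and Gbp4 had 1, wild-type C57BL/6 replicate 2 (0.0539).

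The 2 wild types also differed at these promoters, 11 members being higher and 4 lower in FVB x BALB/c than in C57BL/6 against 6.98% and 11.8% of all promoters (edgeR). Groups did not overlap at 12 members in the higher and 4 in the lower direction, against 7.52% and 11.1%. This comparison shares wild-type C57BL/6 libraries with the KO comparison and wild-type FVB x BALB/c libraries with the Tg comparison. Of the 11 higher members 10 were lower in Tg, beside 42 of 64 members lower there. Of the 4 lower members 3 were lower in Tg and 1, Irf2, was higher. The part of the shared libraries in this overlap was not tested. Gene content and sequence of the Ifi200 cluster are known to differ between inbred strains, and the build used for counting, mm39, is a C57BL/6 genome; differences in mapping, copy number and accessibility cannot be told apart here.

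Gbp4 had 16.9, 7.34, 14.3 and 13.5 CPM in wild-type C57BL/6, a mean of 13.0, against 27.8 CPM in wild-type FVB x BALB/c and 14.5 CPM in Tg. All 4 FVB x BALB/c libraries were above all C57BL/6 libraries, with a log2 difference of 1.05 ± 0.16 (adjusted p = 4.6e-08, edgeR). On the same chromosome Gbp8, Gbp9, Gbp6 and Gbp11 were higher by 0.65, 0.65, 0.53 and 0.49 on the log2 scale. Gbp9 had means of 27.1 CPM in wild-type C57BL/6, 42.8 in wild-type FVB x BALB/c and 23.4 in Tg. Gbp5 on chromosome 3 went the other way, with 21.7 ± 1.95 CPM in C57BL/6 and 13.6 ± 1.03 CPM in FVB x BALB/c and a log2 difference of -0.66 (adjusted p = 0.00119).

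Within the Ifit cluster the directions were mixed. Ifit3b and Ifit1bl1 were lower in FVB x BALB/c by log2 differences of -0.78 and -0.72, and Ifit1 and Ifit1bl2 higher by 0.72 and 0.67. Ifi211 had 9.55 ± 1.32 CPM in C57BL/6 and 17.9 ± 3.07 CPM in FVB x BALB/c, a log2 difference of 0.86 (adjusted p = 0.00034), and Ifi27 was higher by 0.84. Irf2 was lower, with 67.3 to 73.7 CPM in C57BL/6 and 50.9 to 61.6 CPM in FVB x BALB/c (-0.35, adjusted p = 0.00187), and its Tg mean was 69.9 CPM. Of the 15 calls 5 ended without a single library, among them Gbp8 without C57BL/6 replicate 2 (0.0642) or FVB x BALB/c replicate 2 (0.0852), and Gbp11 without C57BL/6 replicate 2 (0.13) or FVB x BALB/c replicate 4 (0.0894). Ifit1bl1 missed it without C57BL/6 replicate 4 (0.116) or FVB x BALB/c replicate 2 (0.0552) or 4 (0.0512). Gbp2 missed it without FVB x BALB/c replicate 1 (0.063), and the highest adjusted p for Ifitm10, a gene named after its values were seen, was 0.193. With gene-end factors the split was 6 higher and 5 lower.

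Gene ends, windows of equal length after the end of the gene, held few counts and few calls. Of the members 54 were tested there and 10 did not pass the filter on low counts. In KO edgeR called 0 of 54, against 0.672% of 15186 gene ends higher and 0.849% lower, and DESeq2 and limma-voom also called 0. At an unadjusted p under 0.05 (edgeR) there were 3 higher and 4 lower members. The share of all gene ends at that level was not counted. In Tg 1 was called lower, against 1.64% lower and 4.63% higher, and between the wild types 1 higher and 1 lower, against 1.15% and 2.18%.

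The gene end that stood out was that of Ifi202b. It had 26.3, 22.8, 26.3 and 31.5 CPM in wild-type C57BL/6 and 11.3, 45.8, 15.8 and 40.6 CPM in KO. In wild-type FVB x BALB/c it had 44.5, 73.0, 53.2 and 67.8 CPM and in Tg 28.9, 27.2, 24.6 and 27.8 CPM. Wild-type FVB x BALB/c was above both wild-type C57BL/6 and Tg in every library, with log2 changes of 1.09 ± 0.32 between the wild types (adjusted p = 0.0261) and -1.09 ± 0.29 in Tg (adjusted p = 0.00432, edgeR); both rest on the same 4 libraries, which held 13 to 21 counts each. The Tg call ended without wild-type FVB x BALB/c replicate 2 (0.0597), and that between wild types without C57BL/6 replicate 1 (0.0759), 2 (0.0893) or 3 (0.0658) or FVB x BALB/c replicate 2 (0.154) or 4 (0.0698). Ifi205 was lower in FVB x BALB/c, with 56.4, 59.2, 61.4 and 63.1 CPM in C57BL/6 and 14.8, 24.3, 39.9 and 10.4 CPM in FVB x BALB/c, groups that were apart (log2 -1.36 ± 0.33, adjusted p = 0.00221).

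In the wider pathway, 65 genes of interferon signalling outside these families were read at their promoters. In KO 1 was lower and none higher: Eif2ak2, the RNA-activated kinase that halts translation, at a log2 change of -0.37 (adjusted p = 0.0221, edgeR), beside 1.9% of all promoters lower and 2.09% higher. In Tg 22 were lower and 16 higher with a median log2 change of -0.16, beside 30.5% of all promoters lower and 26.9% higher, so these counts are near the background. The counts by role follow, and differences between roles were not tested. Of the kinases and STATs 4 of 6 were higher and none lower, led by Jak2 at 0.52 and Stat3 at 0.46, and of the negative regulators 4 of 6 were higher, led by Socs3, a feedback inhibitor of Janus kinases, at 0.62, and 1 was lower. Receptors had 3 higher and 1 lower of 6.

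Of the 6 ligands 3 were lower, none was higher and 3 did not pass; the lower ones were Ifng by -1.15, Ifnk by -0.92 and Ifnb1 by -0.56 on the log2 scale. Of 11 genes of nucleic acid sensing 6 were lower and 2 higher, and of 30 further effectors 11 were lower, 3 higher and 16 did not pass, with Tgtp1, a GTPase, at -1.24, Ddx60, a helicase, at -0.95 and Herc6, a ligase for ISG15, at -0.88. Socs3 and Jak2 had wild-type means of 106 and 117 CPM, and Ifng and Tgtp1 of 9.72 and 10.0 CPM, so of these 4 the genes called higher were also the more open ones. The parts of role and accessibility were not tested apart. With offsets that follow abundance 23 of the 65 were called, 10 higher and 13 lower.

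Markers of other cells were read in the same comparisons. In Tg, where 30.5% of all promoters were lower, 2 of the 8 microglial and leukocyte markers were lower, Csf1r and Itgam, and 6 did not pass, with summed levels of 69.7 to 97.0 CPM in wild type and 59.4 to 72.3 CPM in Tg. Of the 6 endothelial markers Tek and Erg were lower and 4 did not pass, and of the 6 mesenchymal and meningeal markers Twist1 was lower and 5 did not pass. Of the 8 neural stem markers 7 were higher and Pax6 lower, summing to 834 to 901 CPM in wild type and 1169 to 1245 CPM in Tg. Over all promoters 26.9% were called higher, and 63.6% in the most open of the 4 bins of mean accessibility. The 7 had wild-type means from 60.4 CPM at Nes to 177 CPM at Vim, and the part of accessibility in their rise was not tested. In KO the microglial sums were 56.5 to 65.9 CPM in wild type and 54.5 to 65.9 CPM in KO, with Cd68 higher and 7 not passing. Over all 28 markers, Hes1, Cd68 and Erg were higher in KO, Cdh5 and Prrx1 were lower and 23 did not pass. Of all promoters 2.09% were higher and 1.9% lower. None of the 8 microglial markers was at 0, and the part of such cells in the members' values was not tested.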

How the data were processed

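ATAC-seq was performed on 50000 cells per embryo mixed with 50000 Drosophila S2 cells, with 10 PCR cycles, per the labels' protocols; spike-in reads were not used here. The deposited values are whole-number counts per region, which the authors made with featureCounts on mm39 per the submitters' processing notes; aligner, versions and settings: not given in the sources used here. RefSeq (GRCm38.p6) gave symbols for 20091 of 20113 gene IDs and was used for names, gene order and promoter sequence.

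Chromosome Y regions, Xist and Tsix (17 regions per class) were left out, low counts were filtered with filterByExpr, and 20008 promoters and 15186 gene ends were fitted with TMM factors and edgeR's robust quasi-likelihood model over 16 libraries, each group with its own coefficient (R 4.3.3, edgeR 4.0.16, DESeq2 1.42.0, limma 3.58.1), with Benjamini-Hochberg adjustment over the class and a threshold of 0.05. The fit was tested on simulated data with 100 changed regions at each fold, drawn at random from all regions of the class. In KO it found 61 promoters changed 1.5-fold and 90 changed 2-fold, and 8 and 31 gene ends. In Tg it found 67 and 91 promoters and 8 and 44 gene ends. Most changes of this size at gene ends were thus missed. All other simulated regions were left unchanged, unlike in Tg, and most member promoters are less open than the median promoter. Recovery at the members themselves was not measured. Errors are SD over 4 libraries or SE of the log2 change. Promoters had a biological coefficient of variation of 0.0378 and gene ends of 0.0777. All 24 within-group pairs of libraries per class differed by more than sampling noise. The p-values are relative to variation among embryos, including their separate cultures.

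The members, the pathway and marker lists and the alternatives were chosen with earlier results of these data known. One member is included in the counts of members, but its own values are not reported here. Genes named singly were Irf genes, the most open promoters of each other family, all KO calls, the 10 with the largest called changes in Tg and between wild types, the 5 largest differences between effects, and all gene-end calls; others named are said to be chosen after their values or are cited as part of a count.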

Additional observations from a re-analysis of the deposited data

Results flagged for a closer look

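In 8 of 148 promoter groups of 4 libraries, 1 library lay far from the other 3; chance gives about 1 in 20 such groups. Among wild-type libraries these were Ifi202b in C57BL/6 replicate 3 (11.5 CPM, the others 8.86 to 9.06), Irf1 in C57BL/6 replicate 1 (69.0, the others 62.6 to 63.5), Ifi207 in FVB x BALB/c replicate 1 (6.01, the others 8.56 to 8.90), Ifi27 in FVB x BALB/c replicate 4 (30.1, the others 17.5 to 18.3) and Oas1c in FVB x BALB/c replicate 2 (16.3, the others 19.8 to 20.4). Among Tg libraries they were Ifitm7 in replicate 3 (19.7 CPM, the others 24.9 to 25.8), Ifitm2 in replicate 4 (25.1, the others 21.8 to 22.0) and Oasl1 in replicate 2 (14.4, the others 17.3 to 17.6).

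The effect on the promoter differed between Tg and KO at 15 members by the test of the difference. The log2 difference (Tg effect minus KO effect) was -1.12 at Ifi204, -1.09 at both Gbp11 and Ifi211, -0.94 at both Ifi209 and Ifi214, -0.91 at Ifit2 and -0.90 at Gbp9. It was -0.85 at Gbp8, -0.76 at Gbp4, -0.59 at Gbp6, -0.56 at Oas1b, -0.45 at Ifi44l and -0.38 at Gbp2. It was 0.29 at Irf1 and 0.31 at Irf2. The KO effect was itself called at Gbp2 and at no other of the 15, and Ifit2 and Gbp9 had KO values above 0 (0.15 and 0.03).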

How the results depend on the processing

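The number of members called at promoters in KO (4) was 0 with DESeq2 and with gene-end factors and 1 with offsets that follow abundance. In Tg (46) it was 17 with abundance offsets and 19 with gene-end factors. Between the wild types (15) it was 8 after thinning all libraries to equal depth. For the difference between effects (15) it was 7 with abundance offsets, with DESeq2 and after thinning, and 9 with gene-end factors. At gene ends the KO count (0) was 1 with promoter factors and 2 with only the 2 groups compared. The Tg count (1) was 5 with library totals, 3 with abundance offsets, 17 with promoter factors, and 0 with DESeq2 and after thinning. The count between wild types (2) was 0 with DESeq2 and 1 with limma-voom and after thinning. In the pathway list the Tg count (38) was 23 with abundance offsets. Leaving out 1 library at a time gave 1 to 3 promoters in KO, 41 to 46 in Tg, 12 to 18 between wild types and 11 to 19 for the difference, and 0 to 1, 0 to 2 and 1 to 2 gene ends in KO, in Tg and between wild types.

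With gene-end factors the Tg change turned from -0.10 to 0.32 at Gbp3, from -0.32 to 0.0936 at Irf7 and from -0.34 to 0.073 at Irf9. For genes named singly 3900 values under an alternative kept direction and side of the threshold, 196 lost the call, 51 gained it and 3 reversed. DESeq2 size factors and dropping the filter left each promoter count within 1.5 times its value, and a fit of only 2 groups could not give the difference between effects. The replicate block gave 4, 45, 14 and 16 promoters and 0, 1 and 2 gene ends; the labels do not say that equal numbers mark a litter or day, and libraries of the same number correlated from -0.11 to 0.18 at promoters, so the pairing was not used. The cause of these shifts was not tested. Depth limits gene ends most: per library, the median count of a tested region was 8 to 17 there and 49 to 158 at promoters.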
